A study of Mus musculus with 6 samples.

Results

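The genes described here are the mouse Zfp zinc finger genes that were well expressed in Lewis lung carcinoma cells. They were taken as the protein-coding genes of the count table whose symbol is Zfp followed by a number, with at most a letter and a digit after it, and whose read counts over all 6 libraries summed to at least 1000. This rule gave 230 members out of 369 Zfp genes and 24794 genes in the count table. The members were thus selected on their summed count, and their levels are given as a description. The contrast between the groups played no part in the rule.

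Most Zfp genes encode proteins with tandem C2H2 zinc fingers, each of which can read a few bases of DNA. The largest class in mammals carries a KRAB domain at the amino end, which recruits the co-repressor Trim28 and with it histone methyltransferases, and many of its members silence retroelements or guard imprinted genes. The symbol is a nomenclature series and not a single family: it also covers CCCH factors that bind AU-rich mRNA, ribosome-associated proteins and ubiquitin or SUMO ligases.

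Lewis lung carcinoma (LLC) is a transplantable mouse tumour line of C57BL/6 origin. Cells of 3 libraries had received mimics of miR-291-3 and in 3 a control for the mimics. The series' design text gives the microRNA as miR-291a-3p, which mouse embryonic stem cells express, and asks what its overexpression does in these cells. The labels give no dose, time after transfection or separate culture, and p-values therefore rest on library-to-library spread, which may be technical only.

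The mature sequence of miR-291a-3p is shown because the member results are later sorted by matches to its seed, bases 2 to 8, in capitals. That of miR-291b-3p is shown since the sample labels omit the letter. The last seed base separates them, and miR-294-3p and miR-295-3p carry the same seed as miR-291a-3p. The sequences are from RefSeq (GRCm38.p6).
mmu-miR-291a-3p: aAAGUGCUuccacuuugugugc
mmu-miR-291b-3p: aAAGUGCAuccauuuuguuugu

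The mimic libraries held 25376993 to 29058948 counts and the control libraries 28318155 to 32963986. Of the epithelial markers, Krt8 was high and Krt18 low, while Epcam and Cdh1 were at or near 0 in every library. The list was of 6 lung epithelial markers and also held Nkx2-1 and Sftpc. Only 2 of the 6, Krt8 and Krt18, exceeded 1 FPKM. The summed FPKM of 6 epithelial markers was 241 to 254 in mimic and 221 to 228 in control libraries. Nearly all of it was Krt8, with means of 244.1 and 223.5 FPKM. The 6 leukocyte markers summed to 5.78 to 6.17 FPKM in mimic and 9.30 to 10.7 FPKM in control libraries, with Ptprc, Itgam and Adgre1 at or near 0. Cd14 and Lyz2 were expressed and lower in mimic libraries, with means of 3.15 against 4.93 FPKM and 1.83 against 3.73 FPKM. Cd68 had 1.01 and 1.19 FPKM. The 4 endothelial markers summed to at most 0.11 FPKM in mimic and 0.09 FPKM in control libraries, and the 4 fibroblast markers to 2.30 to 3.01 FPKM and 2.80 to 3.06 FPKM. Within the fibroblast sum, Pdgfra was lower in mimic libraries (mean 1.73 against 2.64 FPKM) and Lum higher (0.613 against 0.263 FPKM). The part of these markers in the results was not tested. In such bulk RNA, fewer cells of a type and less RNA per cell cannot be told apart.

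The members were genes of low to middle expression. Their summed counts ran from 1020 to 44934 with a median of 3022, and their mean FPKM, the authors' length-scaled unit, from 0.49 to 43.7 with a median of 2.89. Only 16 members exceeded 10 FPKM and 72 were under 2 FPKM. Together they took 0.566%, 0.569% and 0.559% of the counts in the mimic libraries, against 0.58%, 0.589% and 0.585% in the control libraries. Just inside the limit were Zfp940, Zfp867 and Zfp27 with 1020, 1022 and 1024 counts, and just outside it Zfp84, Zfp691 and Zfp595 with 997, 971 and 969. All 230 passed the filter on low counts and were tested, and in 7 of them one group alone held under 500 counts.

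The name was checked against the annotated proteins. Of the 229 members found in GENCODE M21, 223 had at least 1 C2H2 finger by pattern and 6 had none, among them the CCCH genes Zfp36l1 and Zfp36l2. The median was 10 fingers and the maximum 41, in Zfp142. A KRAB profile matched 120 members, and 109 had no match.

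By the edgeR fit a smaller share of members than of all genes tested was called, and the changes were small. Of 230 members, 38 rose (16.5%) and 43 fell (18.7%), while 149 did not pass (edgeR, p under 0.05 after Benjamini-Hochberg adjustment over 13779 genes). Over all genes tested the shares were 24.3% risen and 24.8% fallen, and over the 9699 genes with at least 1000 counts 31.8% and 28.6%, so that 81 members (35.2%) changed in either direction against 49.1% and 60.4%. In this fit the members' shares were below the background in both directions. For falls this also held with DESeq2 but not with limma on FPKM, as given below. Their median log2 change was -0.02, against -0.01 over all genes tested. The split depends on scaling: with total counts as the only scaling, which moves the median of all genes by -0.06, 20 members rose (8.70%) and 73 fell (31.7%), against 17.0% and 32.3% of all genes, so that the share of falls was close to the background. DESeq2's Wald test called 27 members risen (11.7%) and 25 fallen (10.9%), against 20.4% and 17.6% of the genes it tested. Limma on log2(FPKM + 1) gave 6.52% of members risen and 13.5% fallen, against 7.95% and 12.0% of all genes. On log2(FPKM + 0.1) it gave 6.09% and 13.5% of members, against 8.07% and 11.8% of all genes. Both limma backgrounds hold 24494 genes without the filter on low counts. They include genes expressed far below the members, so these shares are not set against a like set.

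The changes were also smaller. The median absolute log2 change was 0.11 over the members, 0.16 over all genes tested and 0.14 over those with at least 1000 counts. Risen members had a median log2 change of 0.20 and fallen members one of -0.22, against 0.20 and -0.29 over all risen and fallen genes. Of the members, 28 (12.2%) were called with a change of at least 1.2-fold, against 21.2% of all genes tested and 20.7% of those with at least 1000 counts. At 1.5-fold or more only Zfp568 and Zfp367 remained, 0.87% of members against 5.73% and 2.55% of those genes, and no member reached 2-fold. The CPM of the groups did not overlap in 109 members (47.4%, against 54.9% of all genes tested and 65.0% of those with at least 1000 counts), with the mimic libraries above in 48 and below in 61.

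**Figure D1:**
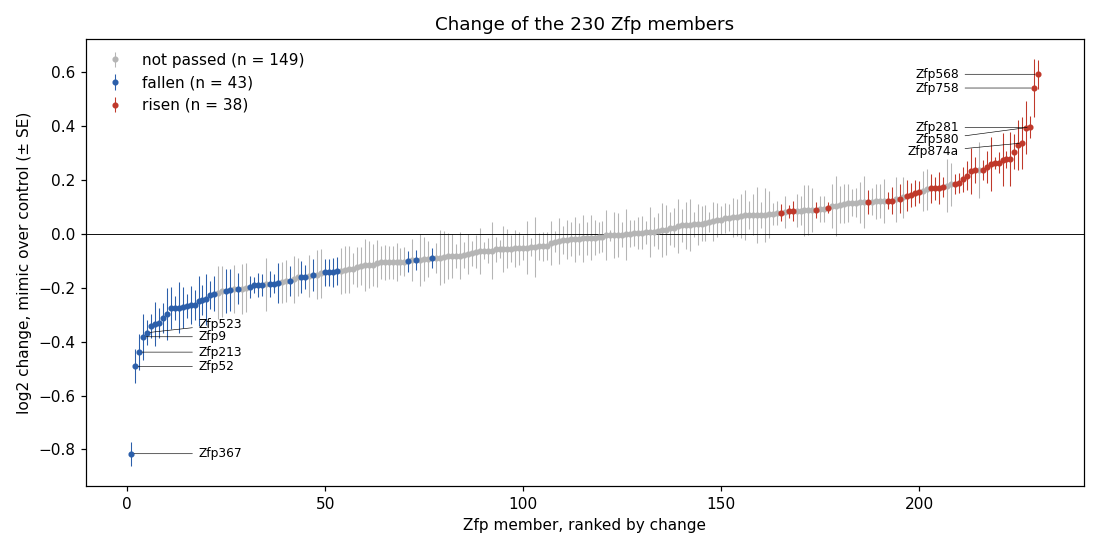
Log2 change of each of the 230 members, mimic over control, ranked from the largest fall to the largest rise, with the SE of the edgeR fit as bars. Members that rose are red, those that fell blue and those that did not pass grey. Zfp367 at -0.82 stands below the other members, and Zfp568 at 0.59 and Zfp758 at 0.54 stand above them.

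Members with more counts passed more often. Among members with 1000 to under 2000 counts 21.2% of 80 were called, against 44.1% of 1208 genes in that range. With 2000 to under 5000 counts the shares were 30.2% of 96 members and 49.1% of 2436 genes. With 5000 to under 50000 counts they were 64.8% of 54 members and 66.3% of 5514 genes. In that top range 20 members rose and 15 fell. The members' share lay below that of all genes in the lower 2 ranges and near it in the top one.

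Members with and without a KRAB domain stood at different levels. The 120 with a KRAB profile had a median of 2.32 FPKM and 12 fingers, against 3.64 FPKM and 8 fingers in the 109 without. Of KRAB members 16 rose, 16 fell and 88 did not pass, with a median log2 change of -0.02. Of the others 22 rose, 27 fell and 60 did not pass, with a median of -0.01. With total counts only, 7 KRAB members rose and 36 fell, against 13 and 37 of the others. At 1000 to under 2000 counts 11 of 60 KRAB members (18.3%) and 6 of 19 others (31.6%) were called, against 44.1% of all genes. With 2000 to under 5000 counts these were 13 of 47 (27.7%) and 16 of 49 (32.7%), against 49.1%. At 5000 counts and above 8 of 13 KRAB members (61.5%) and 27 of 41 others (65.9%) were called, against 66.3% of all genes under 50000 counts. By finger number, 8 of 19 members with 0 to 2 fingers rose and 4 fell, 15 of 83 with 3 to 9 rose and 17 fell, 12 of 77 with 10 to 14 rose and 18 fell, and 3 of 50 with at least 15 rose and 4 fell. The first and last of these groups had median summed counts of 5315 and 2024. Of all genes 38.6% rose and 27.7% fell at 5000 to under 50000 counts, and 17.2% and 31.9% at 2000 to under 5000. Depth moved with finger number, and its part was not tested.

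**Figure D2:**
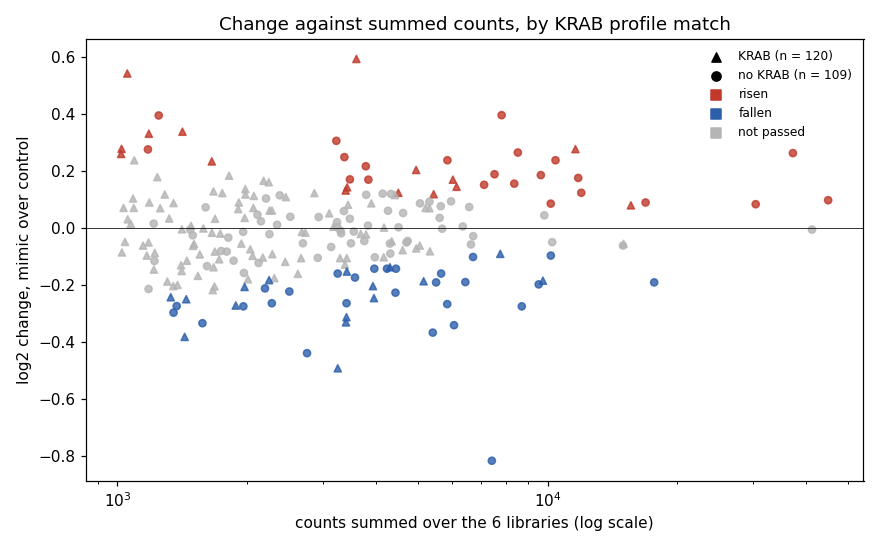
Log2 change, mimic over control, against the counts summed over the 6 libraries (log scale) for 229 members, triangles for KRAB and circles for no KRAB. Red and blue mark members that rose or fell and grey those that did not pass. KRAB members crowd the low-count side, where only larger changes passed.

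Among KRAB members, Zfp568 changed most. In mouse embryos Zfp568 represses a placental transcript of the growth factor gene Igf2. It held 24.9, 25.2 and 25.5 CPM (counts relative to TMM-scaled library size) in mimic libraries, against 17.1, 16.1 and 16.9 CPM in control libraries. All 3 mimic libraries lay above all controls, a log2 change of 0.59 ± 0.05 (SE; edgeR, Benjamini-Hochberg adjusted p = 1.2e-10). Zfp758 had 8.46, 7.01 and 6.50 CPM in mimic libraries and 4.88, 4.89 and 5.23 CPM in control libraries, a log2 change of 0.54 ± 0.11. Its groups did not overlap, and mimic library 1 was the highest.

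Other KRAB members rose by less. Zfp979 (73.7 ± 0.669 CPM in mimic and 60.8 ± 1.71 CPM in control libraries, SD, n = 3 each) and Zfp689 (7.65 ± 0.278 and 6.09 ± 0.340 CPM) rose by 0.28 and 0.33 on the log2 scale. Zfp979 shares 24.6% of its 50-base words with other genes, so that its reads may be split or pooled in counting. Zfp874a, with 16.3% shared, had 8.34, 10.7 and 8.39 CPM in mimic libraries, against 7.60, 6.87 and 7.29 CPM in control libraries. Its rise of 0.34 rested on mimic library 2, without which the log2 change was 0.21 (edgeR adjusted p = 0.0957). Zfp867 rose by 0.28, a call lost without mimic library 1 (edgeR adjusted p = 0.0518) or control library 1 (0.108).

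The falls among KRAB members were led by Zfp52, with 16.8, 15.5 and 14.01 CPM in mimic libraries and 21.0, 21.6 and 22.3 CPM in control libraries. Every mimic library lay below every control (log2 change -0.49 ± 0.06, SE; edgeR adjusted p = 8.95e-08). Zfp9 had 7.02, 7.26 and 7.03 CPM in mimic libraries against 9.03, 9.50 and 9.25 CPM in control libraries, a log2 change of -0.38. Zfp68 (17.2 ± 0.463 CPM in mimic, 21.6 ± 0.884 CPM in control) and Zfp111 (17.4 ± 0.494 and 21.6 ± 0.365 CPM) fell by 0.33 and 0.31. Zfp948, at 17.1 FPKM in mimic and 19.9 FPKM in control libraries the highest KRAB member per length, fell by 0.19.

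Of the KRAB factors known for imprinted genes and retroelements, 4 were members. Of all genes with at least 1000 counts 31.8% rose and 28.6% fell, while of these 4 members 3 rose and none fell. Besides Zfp568 these were Zfp445, which protects imprints, at 92.7 ± 3.13 CPM in mimic and 87.8 ± 1.66 CPM in control libraries (log2 change 0.08), and Zfp961 at 20.7 ± 0.939 and 18.8 ± 0.999 CPM (0.14). Both calls were lost with total counts only, which left 1 risen of the 4 (edgeR adjusted p = 0.576 for Zfp445 and 0.233 for Zfp961). Zfp445 was also lost without mimic library 1 (0.143) or control library 3 (0.139), and Zfp961, whose groups overlapped, without mimic library 2 (0.0848) or 3 (0.154) or control library 1 (0.177) or 3 (0.102). Zfp809, which silences murine leukaemia virus, did not pass (log2 change 0.03 ± 0.10). The list also holds 3 tested genes under the count limit. Zfp932 and Zfp708 did not pass (log2 changes -0.15 ± 0.22 and -0.13 ± 0.13), and Zfp57, the best known imprint guardian, rose. At 951 counts Zfp57 had 7.66, 6.18 and 7.03 CPM in mimic libraries, against 3.92, 3.99 and 4.64 CPM in control libraries, with no overlap (log2 change 0.73, edgeR adjusted p = 2.1e-06).

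Among promoter-binding and other sequence-specific factors without a KRAB role, 22 were members: 3 rose, 7 fell and 12 did not pass (3 and 8 with total counts only), with a median log2 change of 0.00. That is 13.6% risen and 31.8% fallen, against 31.8% and 28.6% of all genes with at least 1000 counts. Zfp367, a C2H2 factor, had the largest change of all 230 members. It held 29.3, 32.3 and 29.6 CPM in mimic libraries, against 50.5, 55.2 and 54.8 CPM in control libraries. The groups were far apart and Zfp367 fell by 43.2% (log2 change -0.82 ± 0.04, SE; edgeR adjusted p = 1e-15). Zfp335, a factor needed for brain development, fell to 31.7, 30.3 and 29.7 CPM in mimic libraries, against 37.6, 38.6 and 39.8 CPM in control libraries (log2 change -0.34). Its exons overlap 2 genes on the other strand, Pcif1 (log2 change -0.17) and Zfp335os (0.55), and the strand setting of the counting is not given in the sources used here.

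Zfp148, a factor of GC-rich promoters, had 54.9, 49.8 and 48.5 CPM in mimic and 56.6, 59.5 and 59.1 CPM in control libraries, a log2 change of -0.20. The highest mimic library lay just below the lowest control. In the other direction, Zfp281, a C2H2 factor of the pluripotency network in embryonic stem cells, held 49.1, 52.9 and 52.6 CPM in mimic libraries, against 37.3, 39.1 and 41.1 CPM in control libraries. No library overlapped (log2 change 0.39 ± 0.04; edgeR adjusted p = 1.92e-09). The other called members of the list, named after their values were seen, were Zfp609 (log2 change 0.26) and Zfp687 (0.19), which rose, and Zfp704 (-0.23), Zfp827 (-0.21), Zfp217 (-0.14) and Zfp131 (-0.10), which fell. Zfp143, a promoter factor, did not pass (0.03 ± 0.06). Its paralog Zfp523 is on none of the lists and fell by 0.37, at 27.0 ± 1.03 CPM in mimic and 34.8 ± 1.12 CPM in control libraries.

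Of 15 members that act on RNA, ribosomes or protein modification 7 rose, 3 fell and 5 did not pass, and with total counts only the split was 3 and 4. Rises also outnumbered falls over all genes at 5000 to under 50000 counts, 38.6% against 27.7%, the range that holds the median of this list, 7121 counts. Zfp106, an RNA-binding protein of motor neurons and muscle, had 229, 243 and 233 CPM in mimic libraries, against 197, 195 and 196 CPM in control libraries. It stood apart in every library (log2 change 0.26 ± 0.02; edgeR adjusted p = 5.18e-11). Zfp622, a maturation factor of the large ribosomal subunit, held 66.0, 64.0 and 66.1 CPM in mimic and 52.3, 55.8 and 58.1 CPM in control libraries, a log2 change of 0.24. Zfp91, an E3 ubiquitin ligase, fell by 0.19 to 94.7 ± 2.79 CPM in mimic libraries, against 108 ± 2.92 CPM in control libraries.

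The highest members per length were in this list or among the CCCH factors. Zfp36l2, which targets AU-rich mRNA for decay, led with 44.4 FPKM in mimic and 43.0 FPKM in control libraries, and Zfp706 followed with 41.2 and 42.4 FPKM. Then came Zfp207, a spindle assembly factor that binds Bub3, with 34.9 and 33.4 FPKM, and Zfp598, the E3 ligase of stalled ribosomes, with 22.4 and 21.5 FPKM. Their log2 changes were small: 0.08 for Zfp36l2, 0.10 for Zfp207 and 0.09 for Zfp598, which rose, and -0.01 for Zfp706, which did not pass. With total counts only none of these 3 rises passed and Zfp706 fell by 0.06. Zfp36l2 was also lost without mimic library 2 (edgeR adjusted p = 0.0509) or control library 3 (0.0525), and Zfp598 without control library 2 (0.108). The related decay factor Zfp36l1 moved the other way, with 30.8, 30.6 and 29.7 CPM in mimic libraries and 36.7, 35.3 and 37.4 CPM in control libraries. Its groups did not overlap (log2 change -0.27 ± 0.04).

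Several members with no role on these lists were also among the largest changes. Zfp580 held 8.24 ± 0.836 CPM in mimic and 6.26 ± 0.417 CPM in control libraries, and Zfp428 20.7 ± 1.95 and 16.8 ± 0.507 CPM, rises of 0.39 and 0.30 on the log2 scale. Zfp72 rose by 0.28 and Zfp940 by 0.26, calls that edgeR lost without control library 1 (adjusted p = 0.125 and 0.122) and without mimic library 3 (0.118 and 0.0987) or control library 3 (0.0519 and 0.056). That of Zfp940 was also lost without mimic library 1 (0.0882). With total counts only neither passed (0.0687 and 0.0996), nor did Zfp867 (0.07). Zfp213 fell to 13.7, 12.9 and 13.4 CPM in mimic libraries, against 16.8, 18.1 and 19.3 CPM in control libraries, with no overlap (log2 change -0.44 ± 0.07). Zfp358 fell by 0.33 and Zfp579 by 0.30, the second no longer called without mimic library 3 (edgeR adjusted p = 0.109) or control library 1 (0.0541).

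**Figure D3:**
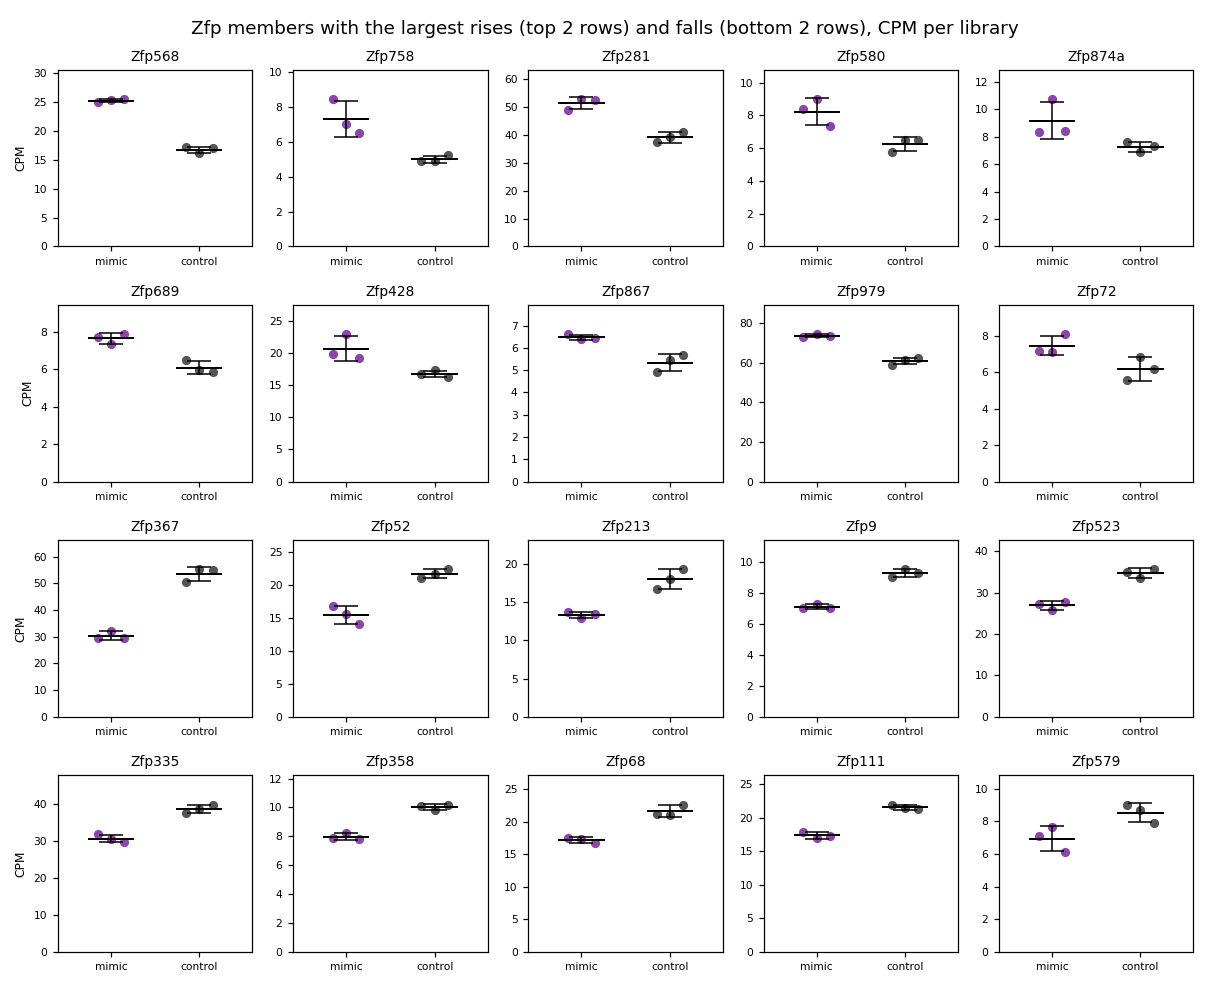
CPM in each mimic library (purple, left) and each control library (grey, right) for the 10 members with the largest rises (upper rows) and the 10 with the largest falls (lower rows) among called members whose groups did not overlap. Lines give the mean and bars the SD over 3 libraries. Zfp367 has the widest gap, 30.4 CPM in mimic against 53.5 CPM in control libraries.

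The members were next grouped by matches to the seed in annotated 3' UTRs. Sites were read on the sense strand of the longest annotated 3' UTR of each gene (GENCODE M21, GRCm38): AGCACTTA (8mer), AGCACTT (7mer-m8), GCACTTA (7mer-A1) or GCACTT (6mer), the best one counting. A 7-base or 8-base site was found in 67 of the 228 members that have such a UTR, of which 6 rose (8.96%) and 20 fell (29.9%), with a median log2 change of -0.08. Of the 161 without, 32 rose (19.9%) and 23 fell (14.3%), with a median of 0.00. Over all tested protein-coding genes the shares were 18.3% risen and 38.1% fallen of 2549 with a site, and 29.8% and 24.5% of 9075 without. With total counts only, 3 members with a site rose and 30 fell, and 17 without rose and 43 fell. Members with a site had longer 3' UTRs, with a median of 3255 bases against 1497, and the part of length was not tested.

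By class, the 15 members with an 8mer had a median log2 change of -0.12, and 7 fell and none rose. The 431 tested protein-coding genes with an 8mer, members included, had a median of -0.12 too, with 212 fallen and 59 risen. Of 44 members with a 7mer-m8 as the best site 29.5% fell and 11.4% rose (median -0.06), against 36% and 19.7% of all such genes. Of 8 with a 7mer-A1 none fell and 1 rose (median 0.05), against 35.1% fallen and 17.3% risen of all such genes. Of 31 with a 6mer 9.68% fell and 25.8% rose (0.01), against 29.6% and 24.6%. Of 130 with no site 15.4% fell and 18.5% rose (-0.01), against 23.5% and 30.9%. Of members with 1 site 8 of 41 fell, of those with 2 sites 8 of 19 and of those with 3 or more 4 of 7. All genes were not split by site number, so these counts have no background beside them. The median 3' UTR lengths of these groups were 2837, 4045 and 4926 bases, and the part of length was not tested. Among members without KRAB 41.7% of 36 with a site fell, against 16.4% of 73 with none. Among KRAB members 16.1% of 31 with a site fell, against 12.5% of 88 with none. Over all genes the shares were 38.1% with a site and 24.5% without, and the difference between the KRAB classes was not tested.

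**Figure D4:**
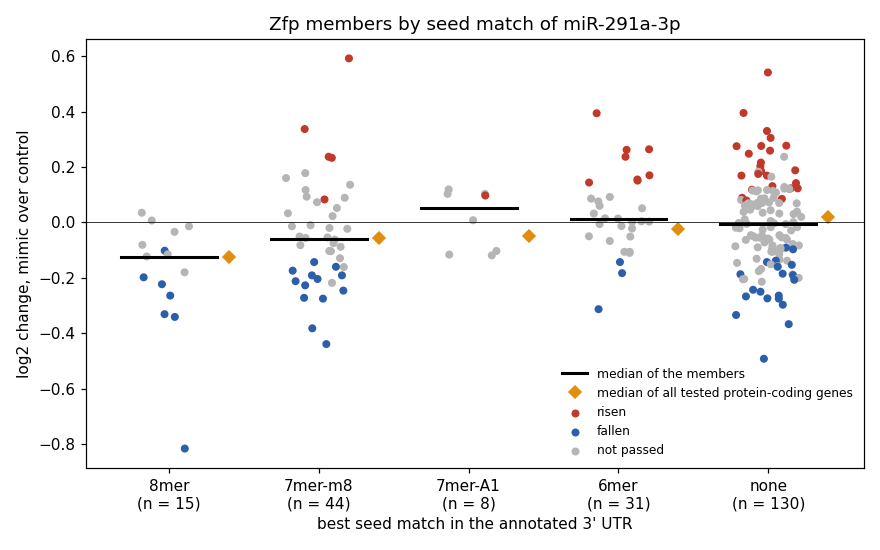
Log2 change, mimic over control, of 228 members by the best seed match of miR-291a-3p in the annotated 3' UTR. Points are members (red risen, blue fallen, grey not passed), black lines their medians and orange diamonds the medians of all tested protein-coding genes of the class. The 8mer median is -0.12 for members and for all genes, and Zfp367 is the lowest point.

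The 8mer sites of the 7 fallen members follow, with the match in capitals and the bases before it, since these are the sites behind that count. They lie in the 3' UTRs on GRCm38 at chr13:64133615-64133622 (minus strand) for Zfp367, chr2:164892732-164892739 (minus) for Zfp335, chr5:138606156-138606163 (minus) for Zfp68, chr7:35772810-35772817 (minus) for Zfp507, chr6:28241104-28241111 (minus) for Zfp800, chr16:33498246-33498253 (plus) for Zfp148 and chr1:33796652-33796659 (minus) for Zfp451.
Zfp367: gaattttaacttggAGCACTTA
Zfp335: tcaggatggtgtccAGCACTTA
Zfp68: ttactgtacattggAGCACTTA
Zfp507: gtctcagtttcataAGCACTTA
Zfp800: aaaattttttctttAGCACTTA
Zfp148: ttcagttgacatagAGCACTTA
Zfp451: atgcctgtaaacgcAGCACTTA

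The sequences before the match have little in common among the 7. Zfp507 had 18.1, 17.0 and 18.1 CPM in mimic libraries against 21.3, 21.9 and 20.8 CPM in control libraries (log2 change -0.26), and Zfp800 13.1, 13.1 and 13.6 CPM against 15.1, 15.4 and 15.9 CPM (-0.22). In both genes the groups did not overlap. Zfp451, a SUMO ligase, fell by 0.10, the smallest of these falls, and lost its call without any one of the mimic libraries or without control library 1 or 2 (edgeR adjusted p = 0.0514 to 0.147). The 8mers of Zfp335 and Zfp451 lie only in the longest 3' UTR and not in the transcript whose coding sequence is longest.

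The other 8 members with an 8mer did not pass. Zfp60 had the largest difference, 9.66, 11.1 and 11.6 CPM in mimic libraries against 12.2, 11.8 and 12.7 CPM in control libraries (log2 change -0.18, edgeR adjusted p = 0.0542), with no overlap. With total counts only it passed (0.0116), as did Zfp41 (0.0458). Zfp41, Zfp668, Zfp422, Zfp697 and Zfp53 had log2 changes of -0.12, -0.11, -0.08, -0.03 and -0.01, and Zfp113 and Zfp280d of 0.01 and 0.03. Zfp280d holds 3 sites and Zfp113 2. These 8 members were grouped because they did not pass, so they cannot show how the number of matches goes with a fall.

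The largest rise, that of Zfp568, was in a gene with a 7mer-m8 in its 3' UTR (GRCm38, chr7:30025030-30025036, plus strand). Similar, not identical, bases stand before sites of other members, which are printed with it. Beside them are 7mer-m8 sites of the fallen Zfp213 (chr17:23556918-23556924, minus) and Zfp9 (chr6:118462364-118462370, minus), which lack such bases. The sites with similar bases are at chr17:55898706-55898712 (plus) for Zfp959, chr8:71933898-71933904 (plus) for Zfp617 and chr7:42473844-42473850 (minus) for Zfp141.
Zfp568: ataccttttatcccAGCACTTg
Zfp959: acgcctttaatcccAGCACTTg
Zfp617: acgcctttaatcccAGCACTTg
Zfp141: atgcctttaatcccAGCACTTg
Zfp213: actaccactccatcAGCACTTt
Zfp9: atatatctaactgaAGCACTTt

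The word TTTAATCCC is the most frequent run of 9 bases in front of AGCACTT over the longest 3' UTRs of all protein-coding genes, before 162 of 3210 sites, while the next most frequent word stood before 18. It belongs to the consensus of B1, a short interspersed repeat of rodents. This was looked at after the site sequences were seen, among them that of Zfp568, the largest rise. Zfp568 is itself counted below, so its rise there is no separate result. Allowing 2 mismatches, the word stood before 10 of 83 such sites in members and before 365 of the 3210 sites. In 8 members every AGCACTT site followed it, and of these 3 rose and none fell, with a median log2 change of 0.13. In the 51 members with another AGCACTT site 2 rose and 20 fell, with a median of -0.10. Over all tested protein-coding genes, 62 of 198 with only such sites rose and 45 fell (median -0.01), against 335 risen and 787 fallen of 1954 with another site (median -0.08). With total counts only, 2 of the 8 members rose and 1 fell, and 1 of the 51 rose and 27 fell. The 3 risen were Zfp568, Zfp959 (10.3 ± 1.09 CPM in mimic, 8.80 ± 0.256 CPM in control, log2 change 0.23) and Zfp35 (36.6 ± 1.15 and 31.0 ± 2.12 CPM, 0.24). Of the other members with the word, Zfp81 fell (-0.20) and the rest did not pass. Those were Zfp617 (0.12), Zfp141 (0.14), Zfp41 (-0.12), Zfp229 (-0.09), Zfp799 (-0.06) and Zfp870 (-0.02). Zfp81 and Zfp870 also have an AGCACTT site without it. Zfp959, Zfp617 and Zfp141 share 21.3%, 44.0% and 11.7% of their 50-base words with other genes, so that their reads may be split or pooled in counting.

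Many Zfp genes lie in clusters that arose by tandem duplication. Chromosome 7 held 44, chromosome 17 held 36 and chromosome 13 held 22. Chained over gaps of at most 500 kb between starts, 7 clusters of at least 5 members were found. In the largest (GRCm38, chr17:21008903-23599487) 18 of 19 members matched KRAB, and Zfp758 rose while Zfp52, Zfp948 and Zfp213 fell. In the second on that chromosome (chr17:32765496-33631779) none of 12 members rose and 4 fell, with a median log2 change of -0.07. In the cluster of Zfp568 (chr7:29833620-30169750) 3 of 8 members rose and 1 fell, with a median of 0.08. On chromosome 13 (chr13:67424549-67827002), where all 11 members matched KRAB, 1 rose and 1 fell. In the other 3 clusters, 1 of 6 members rose and 2 fell on chromosome 6, 1 of 9 rose and 1 fell in the second on chromosome 7, and none of 5 rose and 1 fell on chromosome 9. Both directions were thus seen in 5 of the 7 clusters and falls alone in 2. Of all genes with at least 1000 counts 31.8% rose and 28.6% fell. Of all members, 32 share over 10% of their 50-base words with another gene and 84 have exons that overlap another gene.

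KRAB factors act through Trim28 and its partners, so 27 genes of that co-repressor and heterochromatin machinery were set beside them. Of these 8 rose, 11 fell and 8 did not pass, and with total counts only 3 rose and 13 fell. Their shares of 29.6% risen and 40.7% fallen compare with 31.8% and 28.6% of all genes with at least 1000 counts. Suv39h1, a histone H3 lysine 9 methyltransferase, had 61.0, 56.9 and 57.1 CPM in mimic libraries, against 86.1, 90.8 and 86.5 CPM in control libraries. The groups were far apart (log2 change -0.59 ± 0.03; edgeR adjusted p = 3.66e-15). Its paralog Suv39h2 was 0.27 higher on the log2 scale in mimic libraries and passed. Ehmt2, another methyltransferase of that residue, fell by 0.23, the NuRD remodeller Chd3 by 0.28 and the retroelement silencing factor Resf1 by 0.24. The best site was an 8mer in Suv39h1 and in Pphln1, which rose by 0.20. It was a 7mer-m8 in Tasor and Chaf1a, which fell, and in Hdac2, which rose. Chd3 had a 6mer, and Ehmt2 and Resf1 had no site.

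Trim28 itself had 371, 381 and 383 CPM in mimic libraries, against 359, 361 and 367 CPM in control libraries. Its groups did not overlap, and the log2 change of 0.06 ± 0.02 passed (edgeR adjusted p = 0.0116) but not with total counts only (0.846). Setdb1, the methyltransferase that Trim28 recruits, did not pass (0.03 ± 0.03).

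**Figure D5:**
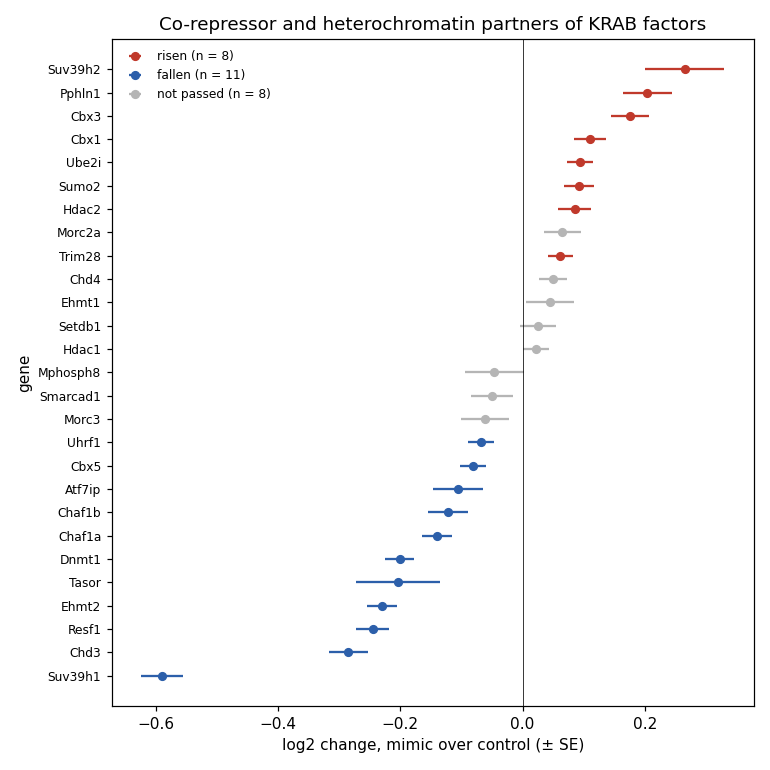
Log2 change, mimic over control, with the SE of the edgeR fit, of 27 co-repressor and heterochromatin genes, ranked. Red genes rose, blue genes fell and grey genes did not pass. Suv39h1 at -0.59 lies below the other genes, and Trim28 is at 0.06.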

How the data were processed

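Polyadenylated RNA of 6 libraries was measured, 3 per group by their titles. Per the submitters' processing notes HISAT2, DESeq2 and the build GRCm39 were used, while versions, counting tool, strand setting and annotation were not given in the sources used here. Whole-number read counts for 24794 genes and FPKM values for 24494 were deposited by the authors. The test was edgeR's quasi-likelihood test (edgeR 4.0.16, R 4.3.3, after filterByExpr and TMM) on the counts, adjusted by Benjamini-Hochberg over all 13779 genes tested, threshold 0.05. CPM are TMM-scaled. Counts of libraries of a group differed by more than sampling noise, so each was counted once.

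The members and lists were chosen with earlier results of these data known. Named genes are the 10 largest rises and falls among called members with non-overlapping CPM, the 5 highest in FPKM, up to 3 called of each role list by adjusted p, members with an 8mer, those at the limit, Trim28 and 4 other co-repressor genes. Others are said to have been chosen after their values were seen.

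Coordinates, proteins and 3' UTRs are from GENCODE M21 (GRCm38), not the authors' build, matched by gene ID. Of 230 members 229 matched. KRAB was called with a HMMER 3.4 profile built from 96 Zfp proteins (E at most 1e-05), and fingers by pattern. The steps were tested on simulated data. Alternatives were other scalings and filters, DESeq2 1.42.0, limma 3.58.1 on log2 FPKM, a replicate block, leaving out each library, other thresholds and another 3' UTR choice.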

Additional observations from a re-analysis of the deposited data

How the results depend on the processing

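Against 38 risen and 43 fallen members with a median log2 change of -0.02, total counts only gave 20, 73 and -0.074, the DESeq2 Wald test 25 fallen, and an adjusted p under 0.01 26 fallen. Limma on log2(FPKM + 1) gave 15 risen and a median of -0.037, and on log2(FPKM + 0.1) 14 risen and -0.051. Members without exon overlap, an alternative chosen after seeing the data, gave 27 fallen of 145 and a median of -0.003. The stricter threshold and the smaller set lower counts by construction, and the other causes were not tested. Leaving out each library gave 31 to 38 risen, 33 to 41 fallen and medians of -0.029 to -0.002. Labels share only replicate numbers: the deviations of same-numbered libraries correlated at 0.0196 to 0.0748, though 6 of 6 libraries correlated best with their own number. The replicate block gave 37 risen and 48 fallen with a median of -0.02. The other settings stayed within 1.5 times of both counts. When sites were taken from the transcript that has the longest coding sequence, the median was -0.15 over 13 members with an 8mer and -0.10 over 5 with a 7mer-A1. Of 50 named genes 40 were called, 26 of them in every setting run. DESeq2 ended 8 calls, those of Zfp867, Zfp72, Zfp579, Zfp445, Zfp961, Zfp451, Zfp800 and Zfp940. Of members with 1000 to under 2000 counts 21.2% were called, against 44.1% of all genes in that range.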
